A study of Mus musculus with 3 samples.

Results

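Members of bone morphogenetic protein (BMP) signalling were followed in mouse gastrocnemius, a mostly fast-twitch calf muscle, while a muscle-made form of the kinase Akt was switched on. The 10 genes comprise 4 ligand genes (Bmp2, Bmp4, Bmp5 and Bmp6), 3 receptor genes (Bmpr1a, Acvr1 and Bmpr2) and 3 target genes (Id1, Id2 and Id3). The members were taken by gene symbol from the array annotation, which gave 23 probe sets for these 10 genes, out of 18193 genes with a probe set of their own. A probe set is a group of short oligonucleotides that reads 1 transcript region, and 1 gene can have several.

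The groups were tamoxifen for 48 h, tamoxifen for 24 h and oil for 24 h, with 1 Affymetrix Mouse 430 2.0 array each. Every array held muscle RNA pooled from 3 to 4 animals, so there is no error between replicates and no group was tested against another. Per the labels, all 3 groups were C57BL/CD1 mice with the genotype Akt_Cre transgenic, and carried Akt joined to the hormone-binding domain of an oestrogen receptor, made in skeletal muscle alone. Tamoxifen stabilises that fusion protein, after which the muscle grows. The age of the mice and the part played by Cre are not given in the sources used here. Neither an oil array at 48 h nor fusion-free mice given tamoxifen were analysed here, so at 48 h time and treatment cannot be told apart, and neither can the fusion and other actions of tamoxifen.

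BMP ligands are secreted dimers of the TGF-beta superfamily. They bring type I receptors (Bmpr1a, Acvr1) together with type II receptors (Bmpr2), and the active type I kinase phosphorylates Smad1, Smad5 and Smad9, which enter the nucleus with Smad4. The Id genes are among the best known direct targets of these Smads: Id proteins have a helix-loop-helix domain but no DNA-binding region, and by pairing with E proteins they hold back factors such as MyoD. In adult mouse muscle, BMP signalling is known to favour muscle mass, the opposite of the myostatin and activin branch that runs through Smad2 and Smad3.

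Intensities below are linear and scaled to a common median, and are given for the tamoxifen 48 h, tamoxifen 24 h and oil arrays in that order. Of the 23 member probe sets, 19 passed the filter on low values (a mean percentile rank of 0.5 or more over the 3 arrays) and each of the 10 genes kept at least 1. A gene was read on its brightest kept probe set, and "past 2-fold" is a rule of size, not a test. A difference of 2-fold is 1 on the log2 scale. Probe sets differ in how strongly they bind, so their levels are not set against each other.

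On their brightest probe sets all 4 ligand genes and all 3 Id genes read below oil at 48 h, where 49.4% of all genes did, with median log2 ratios of -0.39 for the ligands and -0.71 for the Id genes, while the 3 receptor genes had a median of 0.10. The roles were not tested against each other and overlapped among the other kept probe sets, where 1 of Bmpr2 lay at -0.68 and 1 of Id2 at 0.23. Over all 19 kept probe sets of the 10 members, 12 read below oil at 48 h, where 50.9% of all kept probe sets did. At 24 h 11 of the 19 did, against 49.9%. The roles also differed in brightness. The mean ranks of the brightest probe sets were 0.89 to 0.96 for receptors, 0.62 to 0.79 for ligands and 0.75 to 0.87 for Id genes. The part of brightness was not tested. The 7 ligand and Id genes were below oil at 48 h under each of the 4 scalings tried. Bmp2 was the 1 member past 2-fold. At 24 h none was past 2-fold, the median over the members was -0.08, and 6 of 10 read below oil, near the 46.0% of all genes that did. That count became 5 with the values as deposited (without Id1) and 7 after quantile normalization or cyclic loess (with Bmpr2).

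Each count of members past a fold rests on few genes, and is given here beside the share of all genes. At 48 h 1 of 10 members was past 2-fold lower, where 2.71% of 11092 genes were, and none was past 2-fold higher, where 3.72% were. In either direction 6.44% of all genes were past 2-fold at 48 h, and at 24 h the share was 4.83%, beside 0 of 10 members. By a 1.5-fold rule 3 members were lower at 48 h (Bmp2, Id2 and Id3), with 10.7% of all genes, and 2 were lower at 24 h (Bmp6 and Id2), with 9.02% of all genes. None was 1.5-fold higher at either time, where 11.7% of genes at 48 h and 9.57% at 24 h were. Over the 19 kept probe sets 1 was past 2-fold at 48 h and 0 at 24 h, where 7.14% and 7.32% of all 21804 kept probe sets were. The median over the members at 48 h was -0.39, and over all genes it was 0.01. The sign split of all genes shifts with scaling: 261 were past 2-fold higher and 275 lower at 24 h, against 363 and 206 with the values as deposited, 311 and 207 after quantile normalization, and 303 and 210 after cyclic loess.

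**Figure D1:**
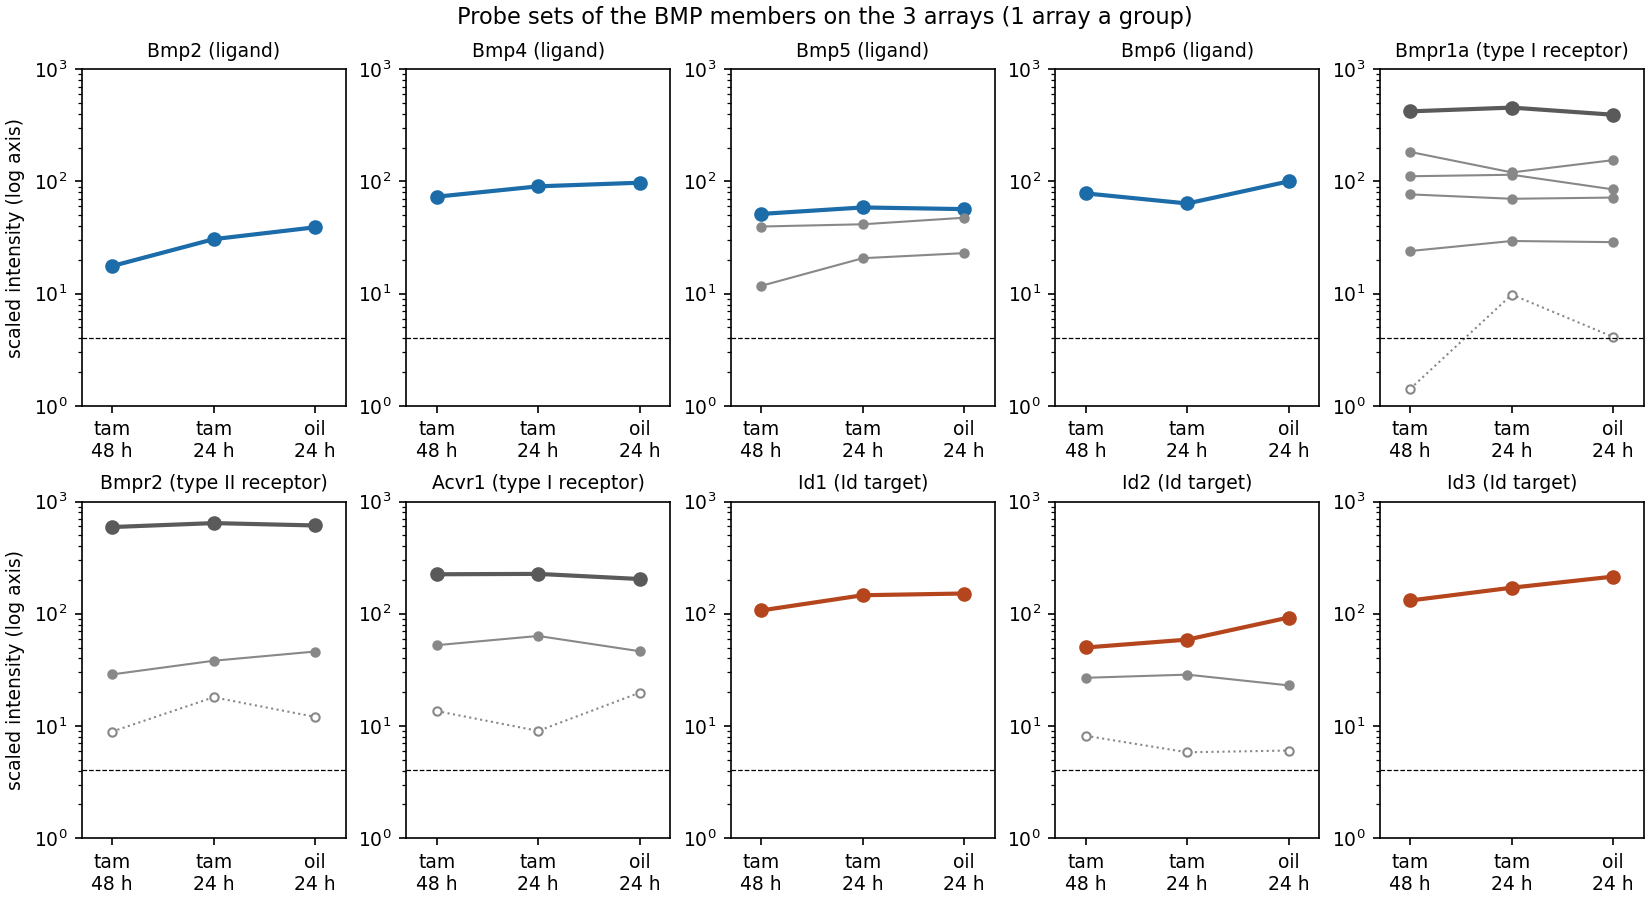
Scaled intensity (log axis, the same in all panels) of the 23 member probe sets on the tamoxifen 48 h, tamoxifen 24 h and oil 24 h arrays, 1 array each. Thick coloured lines are the brightest probe set of a gene, thin grey lines its other kept probe sets, and dotted lines with open points those under the filter; the dashed line is the floor of 4.05. The thick lines of Bmp2, Bmp4, Id1, Id2 and Id3 are lowest at 48 h and highest on oil, and the thick receptor lines are nearly level.

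Among the ligands, Bmp2, a strong inducer of bone and cartilage, read 17.6 at 48 h, 30.6 at 24 h and 39.1 on oil. Its level at 48 h was 2.22-fold lower than on oil (log2 ratio -1.15) and 1.74-fold lower than at 24 h (-0.80). At 24 h it was 1.28-fold below oil (-0.35). Bmp2 was the member with the widest span over the 3 arrays, and 1.82% of all genes had a ratio as low or lower at 48 h. Its value rests on a single, fairly dim probe set (1423635_at, mean rank 0.62). Among the 1861 genes with a mean rank between 0.6 and 0.7, 7.47% were past 2-fold at 48 h, against 3.86% of the 2824 genes above 0.9.

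Bmp4, the closest relative of Bmp2 and likewise a ligand for Bmpr1a, read 73.2 at 48 h, 90.5 at 24 h and 97.5 on oil. The 48 h array was the low one, 1.33-fold below oil (-0.41), and the 24 h array was 1.08-fold below (-0.11). Of all genes, 18.1% had a ratio as low or lower at 48 h. Bmp4 and Bmp6 were also read by a single probe set each.

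Bmp6, which acts through Acvr1 and is best known for its part in the control of iron by the liver, read 78.3 at 48 h, 63.7 at 24 h and 100.2 on oil. It was the ligand whose low array was the 24 h one, 1.57-fold below oil (-0.65, with 7.24% of all genes as low or lower), and at 48 h it was 1.28-fold below (-0.36). On brightest probe sets and main scaling, only Bmp6 of the 10 members read higher at 48 h than at 24 h (1.23-fold, 0.30). Of the 5 kept probe sets of Bmpr1a, 2 dimmer ones also did (0.61 and 0.13).

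Bmp5, a ligand of the same subgroup as Bmp6, has 3 kept probe sets. The brightest (1455851_at) read 51.4 at 48 h, 58.7 at 24 h and 56.7 on oil, log2 ratios of -0.14 at 48 h and 0.05 at 24 h. The next (1421283_at) read 39.7, 41.5 and 47.5. The dimmest (1421282_at) read 11.7, 20.7 and 23.0, a log2 ratio of -0.97 at 48 h. All 3 were lowest at 48 h, but by amounts that span 0.83 on the log2 scale, and at 24 h they lay on both sides of oil, from -0.19 to 0.05.

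The receptors lay near oil on their brightest probe sets, and the others did not go one way. Acvr1, the type I receptor also called ALK2, read 225 at 48 h, 226 at 24 h and 204 on oil on its brightest probe set (1448460_at), log2 ratios of 0.14 at 48 h and 0.15 at 24 h. Its second kept probe set (1416786_at) read 52.5, 63.4 and 46.3. Both were above oil at both times, by at most 0.45 on the log2 scale. Another (1416787_at), under the filter with a mean rank of 0.49, went the other way at 13.6, 9.03 and 19.8.

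Bmpr1a, the type I receptor with the highest affinity for Bmp2 and Bmp4 and also called ALK3, has 5 kept probe sets. The brightest (1425492_at) read 421 at 48 h, 455 at 24 h and 393 on oil, log2 ratios of 0.10 and 0.21. At 48 h the 5 ratios spanned -0.26 to 0.39, 4 of them above 0, and at 24 h they spanned -0.36 to 0.43, 3 of them above 0. The probe set that was low at 24 h (1425494_s_at) read 183, 120.4 and 155; by the maker's naming, the suffix _s_at marks probes that can match more than 1 transcript. Another (1445413_at), under the filter, read 1.42, 9.82 and 4.11, the first of these below the floor of 4.05.

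Bmpr2, the type II receptor specific for BMPs and the gene most often mutated in human heritable pulmonary arterial hypertension, read 592 at 48 h, 642 at 24 h and 612 on oil on its brightest probe set (1434310_at). These values lie within 0.12 of each other on the log2 scale, the narrowest span of the 10 genes. A dimmer kept probe set (1419616_at) read 28.8, 38.1 and 46.0, log2 ratios of -0.68 at 48 h and -0.27 at 24 h, so Bmpr2 was level on a bright reading and below oil on a dim one. Another (1441652_at), under the filter with a mean rank of 0.47, read 8.91, 18.0 and 12.04.

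**Figure D2:**
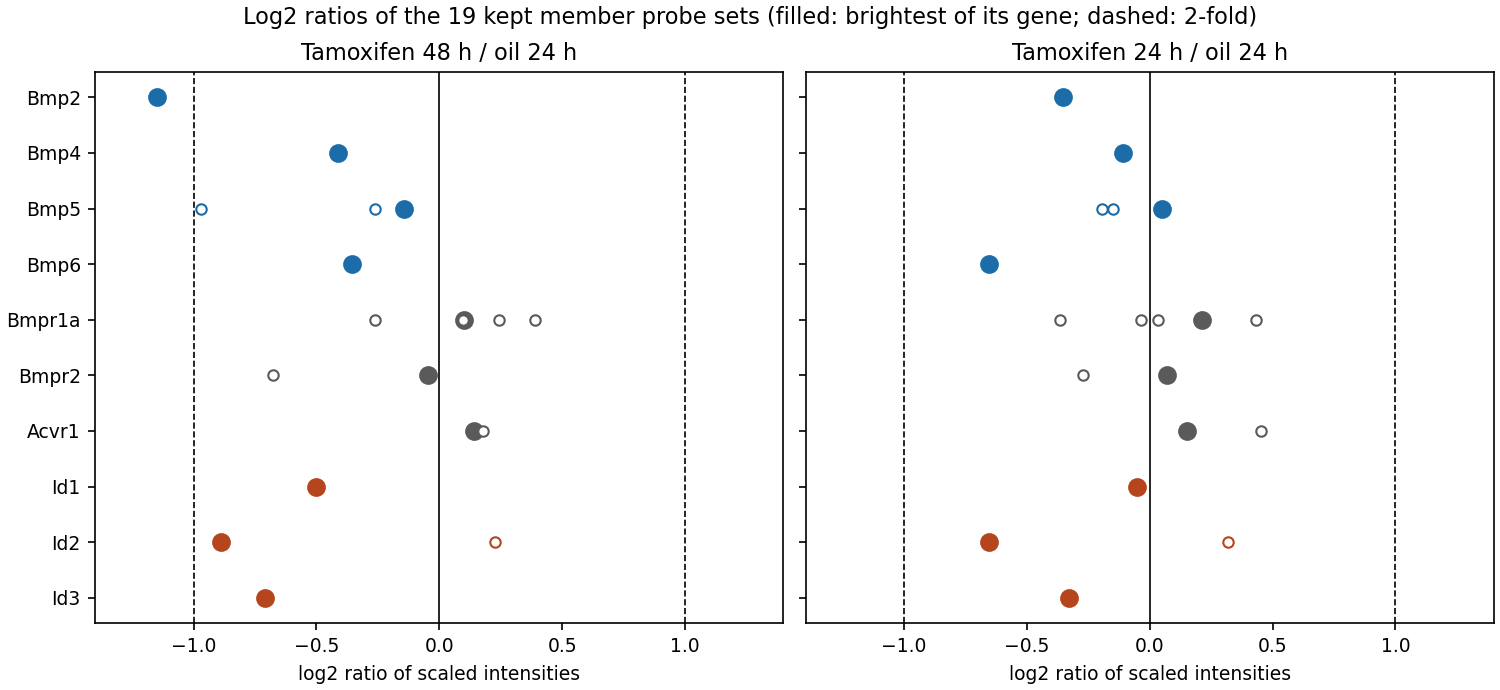
Log2 ratio of the 19 kept member probe sets, tamoxifen 48 h over oil (left) and tamoxifen 24 h over oil (right), 1 row per gene, with ligands in blue, receptors in grey and Id genes in orange. Filled points are the brightest probe set of a gene and open points the others; dashed lines mark 2-fold. At 48 h only Bmp2, at -1.15, lies past a dashed line, and the open point of Id2 lies above 0 while its filled point is at -0.89.

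The Id genes were the target members, and on their brightest probe sets all 3 were ordered alike, lowest at 48 h and highest on oil. Id3 read 131 at 48 h, 171 at 24 h and 214 on oil, which is 1.63-fold below oil at 48 h (-0.71) and 1.26-fold below at 24 h (-0.33). Id1, the member most used as a readout of BMP signalling, read 107 at 48 h, 146 at 24 h and 151 on oil. Its 24 h and oil arrays differed by 0.05 on the log2 scale, a sign that turned with the values as deposited (0.04), and its 48 h array was 1.42-fold below oil (-0.50). Of all genes, 7.35% had a ratio as low as that of Id3 at 48 h and 14.0% one as low as that of Id1. Both genes have a single probe set.

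Id2, which besides BMP signalling responds to many other cues, was read by 2 kept probe sets that disagreed. The brighter (1435176_a_at) read 50.01 at 48 h, 58.8 at 24 h and 92.5 on oil, 1.85-fold below oil at 48 h (-0.89) and 1.57-fold below at 24 h (-0.65). The dimmer (1422537_a_at) read 26.9, 28.7 and 23.0, log2 ratios of 0.23 and 0.32. On the first the oil array was high and on the second it was low, a gap of 1.11 on the log2 scale at 48 h. The suffix _a_at marks, by the maker's naming, probes shared by transcripts of 1 gene. Another (1453596_at), under the filter with a mean rank of 0.34, read 8.17, 5.83 and 6.04. The lower reading of Id2 therefore holds for 1 of its 2 kept probe sets.

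Gaps of that size between probe sets were not rare on these arrays. Over 5001 genes with 2 or more kept probe sets, the log2 ratios of 1 gene's probe sets had a pooled standard deviation of 0.41 at 48 h and 0.48 at 24 h, and in 13.5% of these genes they spanned 1 or more at 48 h. This measures disagreement between probe sets and not variation between mice. It holds no error between arrays either, so the members are not sorted by it into changed and unchanged.

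The promoter windows of both Id genes that the RefSeq table lists are shown because these are the targets through which BMP Smads are known to act, and that of Bmpr2 is shown as a receptor whose brightest reading was level. Each runs 5′ to 3′ on the strand of its gene, from 250 bases before the start site to 50 after it (RefSeq, build GRCm38.p6). Capitals mark GGCGCC, a GC-rich motif bound by Smad1 and Smad5, and GTCTG or its reverse complement CAGAC, which hold the core Smad box. Id2 lies at chr12:25096043-25096342 on the minus strand, Id3 at chr4:136143572-136143871 on the plus strand and Bmpr2 at chr1:59764029-59764328 on the plus strand.
Id2: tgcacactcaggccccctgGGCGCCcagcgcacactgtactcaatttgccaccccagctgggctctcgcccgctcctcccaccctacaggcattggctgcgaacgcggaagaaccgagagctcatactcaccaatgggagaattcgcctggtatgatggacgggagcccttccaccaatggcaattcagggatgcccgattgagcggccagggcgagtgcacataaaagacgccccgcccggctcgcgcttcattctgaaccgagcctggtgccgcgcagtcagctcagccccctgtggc
Id3: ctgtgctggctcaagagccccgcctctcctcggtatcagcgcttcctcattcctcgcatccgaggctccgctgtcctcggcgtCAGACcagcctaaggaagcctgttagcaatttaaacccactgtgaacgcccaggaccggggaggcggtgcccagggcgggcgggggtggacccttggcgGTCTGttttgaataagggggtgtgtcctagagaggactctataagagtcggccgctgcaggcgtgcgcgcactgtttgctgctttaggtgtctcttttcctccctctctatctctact
Bmpr2: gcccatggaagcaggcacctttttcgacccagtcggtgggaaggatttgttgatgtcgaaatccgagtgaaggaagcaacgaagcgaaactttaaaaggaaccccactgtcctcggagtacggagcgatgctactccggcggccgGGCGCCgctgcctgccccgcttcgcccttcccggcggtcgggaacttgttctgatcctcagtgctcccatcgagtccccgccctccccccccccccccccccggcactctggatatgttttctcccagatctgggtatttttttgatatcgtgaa

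Id2 holds GGCGCC once, starting 231 bases before the start site, and Id3 holds CAGAC and GTCTG, starting 167 and 68 bases before it. Bmpr2 holds GGCGCC at 105 bases before it. Both strands were searched and no matches overlapped. Of the 8 members listed in the table, 3 windows held GGCGCC (Id2, Bmpr2 and Bmpr1a), 3 held GTCTG or CAGAC (Id3, Bmp5 and Bmp6) and 2 held neither (Bmp4 and Acvr1). Of all 32851 windows in the table, 11.9% held GGCGCC and 49.6% held GTCTG or CAGAC. The matches are a description of these windows. Bmp2 and Id1 are not listed.

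Tamoxifen 48 h was also set against tamoxifen 24 h, and these arrays share the agent and differ in time. On their brightest probe sets, 9 of the 10 members read below at 48 h, against 53.1% of all genes. Bmp6 was the exception, and the count was 8 after quantile normalization or cyclic loess, where Acvr1 turned. The median over the members was -0.21 and over all genes -0.02. No member was past 2-fold, beside 3.22% of all genes (1.8% higher and 1.42% lower). The lowest ratio was that of Bmp2 at -0.80, the 1 member past 1.5-fold lower, where 5.84% of all genes were, followed by Id1 at -0.45 and Id3 at -0.38. The 3 receptors lay between -0.12 and -0.01. Over all genes 200 were past 2-fold higher and 157 lower in this comparison, against 103 and 249 with the values as deposited, 144 and 191 after quantile normalization, and 160 and 188 after cyclic loess.

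Of the 10 members, 5 (Bmp2, Bmp4, Id1, Id2 and Id3) stepped down in the order oil, tamoxifen 24 h, tamoxifen 48 h, which 20.6% of all genes did. None stepped up in that order, which 21.5% of all genes did. With the values as deposited 4 members stepped down and 0 up, and after quantile normalization or cyclic loess 6 stepped down, Bmpr2 with them, and 1 up (Acvr1). Over kept probe sets the downward order was seen in 8 of 19, against 19.6% of all 21804. Both ratios to oil share the single oil array, so a high oil reading alone would place a gene below oil at both times.

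**Figure D3:**
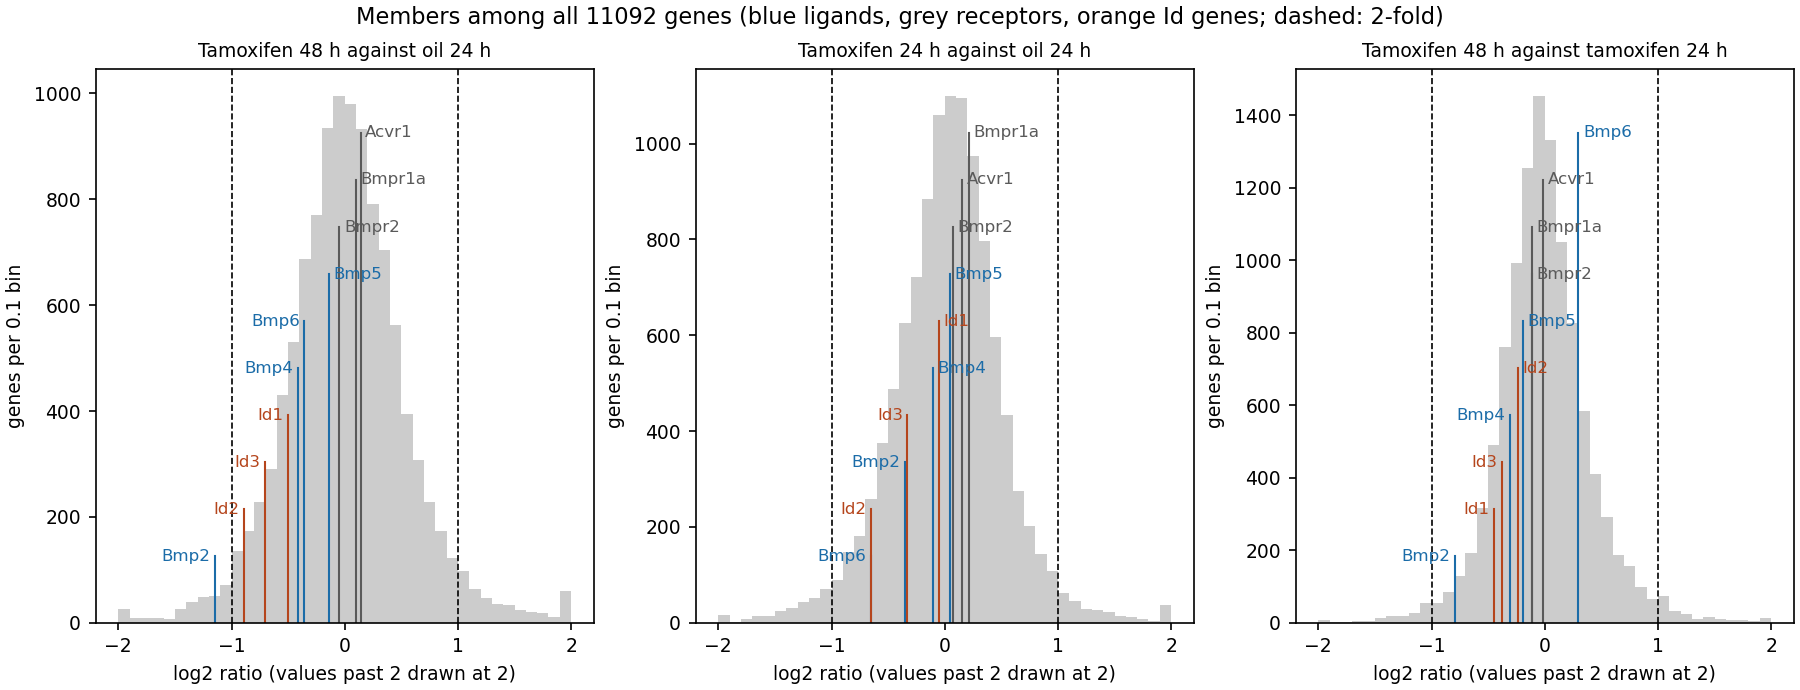
Histograms of the log2 ratios of all 11092 genes (grey, genes per 0.1 of log2 ratio; ratios past 2 are drawn at 2) for tamoxifen 48 h against oil, tamoxifen 24 h against oil, and tamoxifen 48 h against 24 h, with a line at each member's ratio. Line heights only separate the names; dashed lines mark 2-fold. At 48 h the Id genes and Bmp2 are the leftmost members, from -1.15 to -0.50, and the receptors lie near the centre. Of all genes, 14.0% had a ratio as low as that of Id1 or lower.

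The rest of the pathway was read from 7 lists with 73 genes, of which 52 passed the filter, 16 lay under it and 5 had no probe set of their own. At 48 h 2 of the 52 were past 2-fold higher, where 3.72% of all genes were, and 2 lower, where 2.71% were. The median log2 ratio of the 52 was -0.11. At 24 h 1 was past 2-fold lower, where 2.48% of all genes were, and none was past 2-fold higher, where 2.35% were, with a median of -0.05. These shares are near the background, so they are no result about the lists.

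Among the other ligand genes 3 of 11 were read. Gdf10, a divergent member of the family also called Bmp3b, read 47.7 at 48 h, 85.1 at 24 h and 91.1 on oil, a log2 ratio of -0.93 at 48 h. Bmp8a read 19.4, 27.5 and 17.9, and Gdf2 (BMP9, made mainly by liver) read 22.5, 19.4 and 22.3, both within 2-fold of oil. Bmp7 and Gdf5, the ligand that protects denervated mouse muscle, were under the filter.

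The 9 further receptors and co-receptors were all read. Rgma, a membrane-anchored co-receptor that binds Bmp2 and Bmp4, read 118 at 48 h, 95.8 at 24 h and 49.98 on oil, 2.36-fold above oil at 48 h (1.24) and 1.92-fold above at 24 h (0.94, and 1.03 with the values as deposited), on a single probe set. Acvr2b, a type II receptor shared with myostatin and activins, read 43.6, 71.9 and 95.3, 2.19-fold below oil at 48 h (-1.13), where its other kept probe set gave -1.20. At 24 h its probe sets gave -0.41 and -3.12. Hjv (hemojuvelin), a co-receptor abundant in skeletal muscle, read 2719, 2520.5 and 2407, and Acvr2a read 449, 798 and 562. Acvrl1, the endothelial type I receptor, lay at 0.63 at 48 h on its brighter probe set and at 0.01 on the other.

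None of the 12 Smads, Smad inhibitors and related regulators that were read was past 2-fold on its brightest probe set. Smad1 read 281 at 48 h, 205 at 24 h and 277 on oil, Smad5 read 107, 126 and 111, and Smad4 read 657, 640.01 and 655. Smad9 was under the filter. The inhibitory Smads are themselves BMP targets: Smad6 read 52.1, 40.5 and 62.0, a log2 ratio of -0.61 at 24 h and -0.25 at 48 h, and Smad7 lay at -0.11 at 48 h on its brighter probe set and at -1.35 on the other. Bambi, a decoy receptor, lay at -0.55 at 48 h, and Ski, a Smad corepressor, at 0.52.

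Of 18 secreted antagonists and modulators 13 were read, and the largest ratio of a brightest probe set in the 7 lists was there. Crim1, a transmembrane protein that binds BMPs and hinders their maturation, read 185 at 48 h, 92.2 at 24 h and 434 on oil. It was 4.70-fold below oil at 24 h (-2.23, other kept probe set -1.44) and 2.35-fold below at 48 h (-1.23, other kept probe set -1.45). Nog (noggin), which traps Bmp2 and Bmp4, went the other way at 40.2, 37.7 and 22.2, log2 ratios of 0.86 and 0.76 that are within 2-fold. Fst (follistatin) read 68.8, 67.8 and 78.6. The protease Htra1 lay at 0.82 at 48 h and Sostdc1 at -0.64.

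The list of BMP-responsive genes, which holds Fbxo30, a gene that BMP signalling represses, beside genes that it induces, had 6 that were read. All 6 lay below oil at 48 h under each of the 4 scalings, where 49.4% of all genes did on the main scaling, with a median of -0.22 and none past 2-fold. Id4, the remaining Id gene, read 35.0 at 48 h, 41.7 at 24 h and 57.6 on oil, and its 3 kept probe sets lay between -1.04 and -0.55 at 48 h and between -1.35 and -0.22 at 24 h. Thus all 3 probe sets of Id4 read below oil at both times, as did the brightest of Id1, Id2 and Id3, apart from the turn of Id1 at 24 h given above. Fbxo30, a ubiquitin ligase (MUSA1) known from wasting mouse muscle, read 72.1, 80.2 and 118, a log2 ratio of -0.71 at 48 h. Its 4 kept probe sets spanned -0.81 to 0.15 at 48 h and -0.56 to 0.56 at 24 h. Msx1 lay at -0.20 and Hey1 at -0.17 at 48 h.

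The partners of the Id proteins were read in full, 7 of 7. Myog, the myogenin gene, read 127 at 48 h, 59.2 at 24 h and 62.6 on oil, 2.02-fold above oil at 48 h (1.02), a log2 ratio that was 0.96, within 2-fold, with the values as deposited. Myod1 read 246, 201 and 182, log2 ratios of 0.43 and 0.14, and Myf6 read 770.2, 817 and 1045. The E protein gene Tcf3 lay at -0.83 at 48 h on its brightest probe set, while another lay at 0.44. Tcf4 lay at 0.04 and Tcf12 at -0.36. The myogenic factor Myf5 lay at -0.35.

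**Figure D4:**
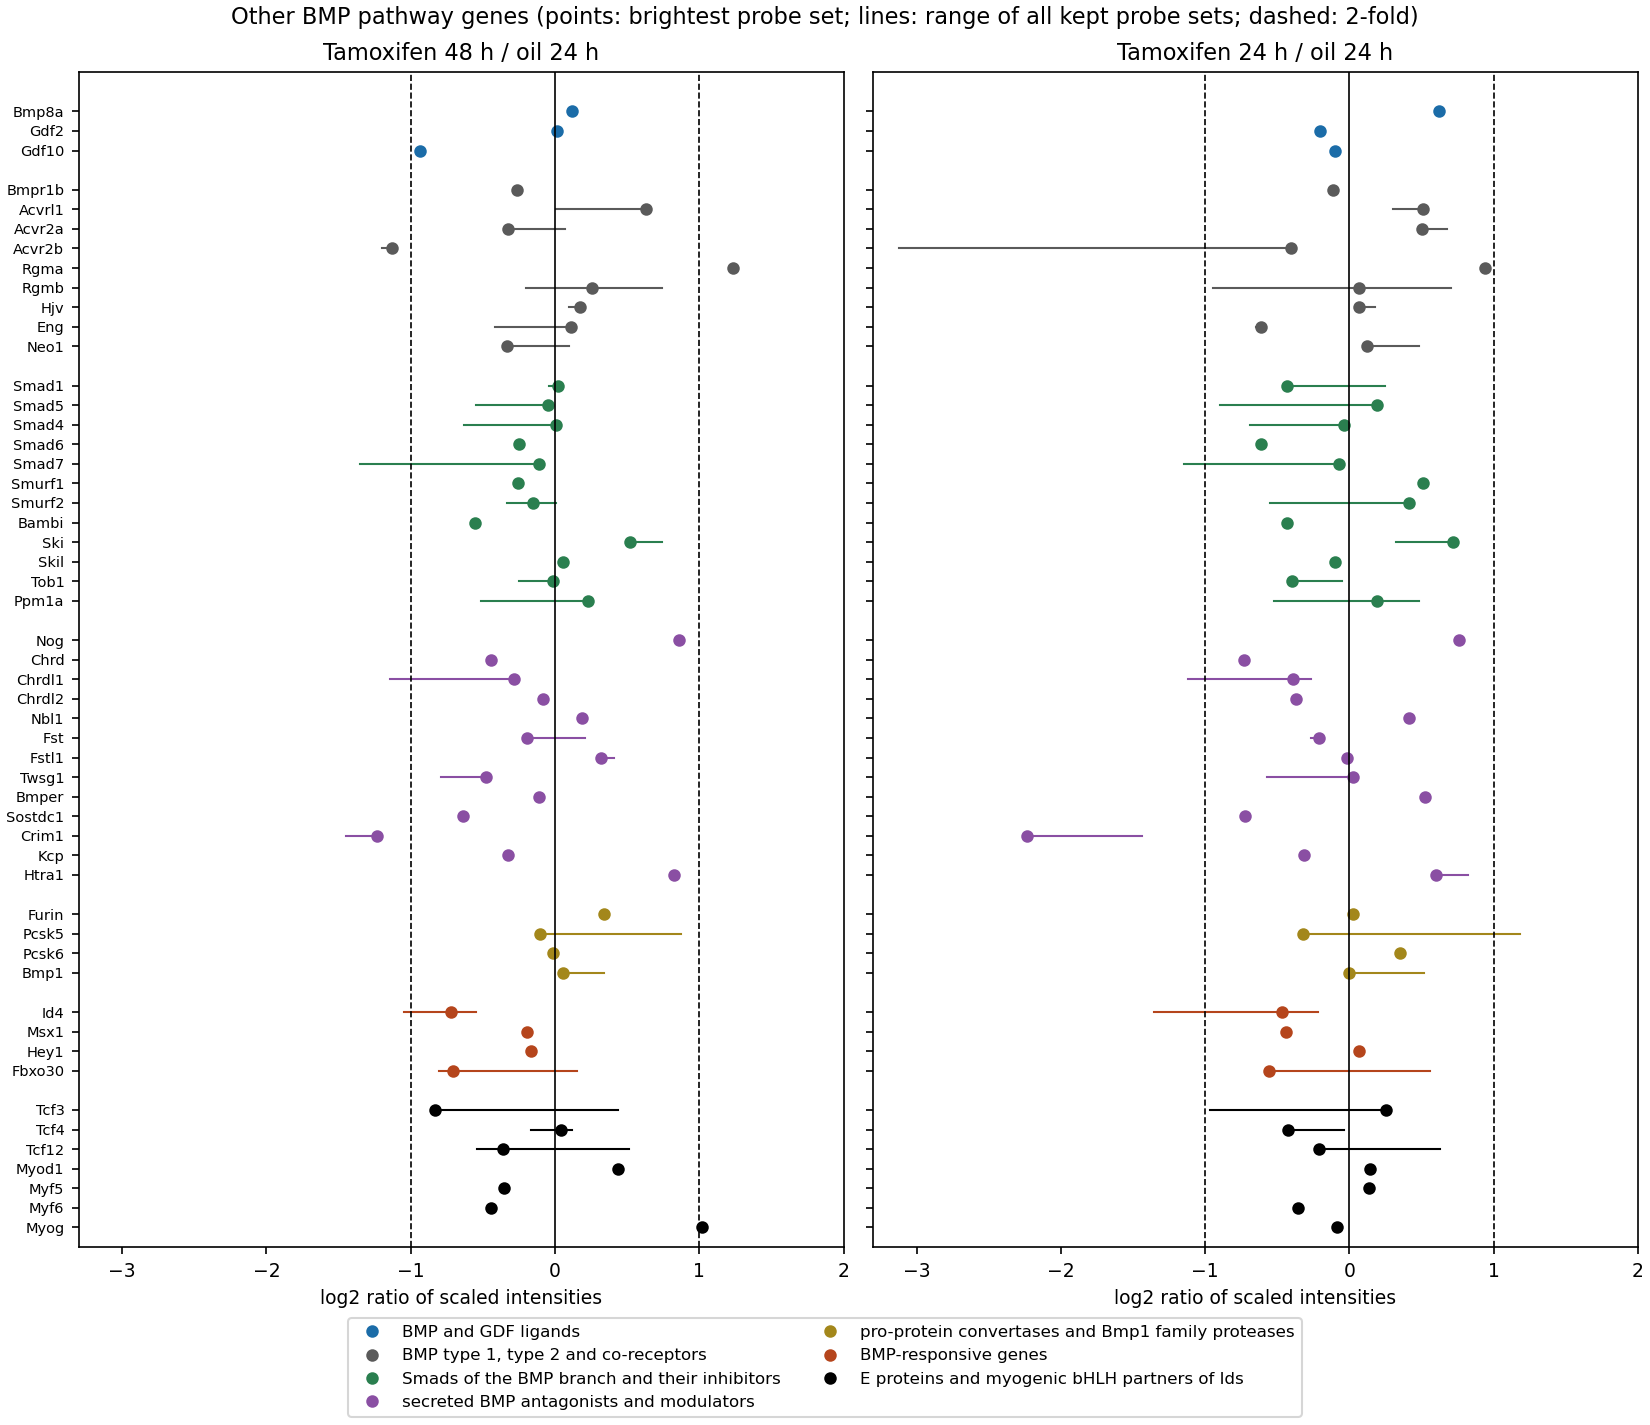
Log2 ratios of the 52 other BMP pathway genes that passed the filter, tamoxifen 48 h over oil (left) and tamoxifen 24 h over oil (right), coloured by list. Points are the brightest probe set, lines the range over all kept probe sets of the gene, and dashed lines 2-fold. Past a dashed line on their points at 48 h are Rgma and Myog on the right and Acvr2b and Crim1 on the left, and long lines mark genes whose probe sets disagree, such as Smad7 and Acvr2b.

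The pattern of Bmp2, the member with the widest span (1.15 on the log2 scale), was most like those of Acvr2b, Il12a (a subunit of interleukin 12) and Setd2 (a histone methyltransferase). Likeness was the distance between the pairs of log2 ratios to oil, over 3 arrays, and came to 0.06, 0.07 and 0.09. It was taken on brightest probe sets. The other kept probe set of Acvr2b lay at -1.20 at 48 h but at -3.12 at 24 h, where Bmp2 lay at -1.15 and -0.35. With so few arrays many genes are alike: 91 of 11091 others lay within 0.25 of Bmp2.

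Several cell types of muscle make BMP ligands and Id proteins, and in bulk RNA fewer cells of a type and less RNA per cell cannot be told apart. Skeletal fibre markers showed muscle on every array: all 10 were read, their summed intensities were 87049 at 48 h, 84792 at 24 h and 87367 on oil, and none was past 2-fold. All 10 endothelial markers were read, none at the floor, with sums of 1221, 1508 and 1624; 8 of 10 lay below oil at 48 h (median -0.38) and 5 of 10 at 24 h (median 0.01). All 6 smooth muscle and pericyte markers were read, with sums of 3673, 3756 and 5089, and medians of -0.57 at 48 h and -0.47 at 24 h. Of these, Myh11 was past 2-fold lower at 48 h (-1.05). Endothelium and vessel wall are known to express Id1, Id3, Bmp4 and Bmp6. The sum of every marker list was below oil at 48 h, by unlike amounts. The median log2 ratios of the lists ran from -0.01 for fibre markers to -0.77 for tendon markers. Among the endothelial and the smooth muscle and pericyte markers, Kdr (0.47), Cldn5 (0.11) and Cspg4 (0.21) read above oil at 48 h. The part of these cells in the result was not tested.

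For the remaining lists the sums at 48 h, 24 h and on oil were as follows. All 6 fibroblast markers gave 12834, 12519.8 and 13994, and all 6 macrophage and leukocyte markers gave 1163, 1262 and 1340. Both lists held markers that went opposite ways at 48 h. Col1a1 was past 2-fold higher (1.18) and Dcn lay at -0.41, and Cd163 was past 2-fold lower (-1.07) and Cd68 lay at 0.58. Of 4 tendon markers 3 were read and gave 1229, 1490.1 and 2159.5, a median log2 ratio of -0.77 at 48 h. Of 5 adipocyte markers 3 gave 3881, 5190.1 and 4526, with Cidec past 2-fold higher at 24 h (1.10). Of 4 Schwann cell markers 2 gave 2017, 2180.4 and 2225, and of 4 blood markers only Alas2 was read, at 38.4, 35.7 and 39.1. The part of these cells in the results was not tested. The ratio of 3′ to 5′ probe sets, a sign of RNA quality, was 0.83, 0.87 and 0.85 for Gapdh, 1.10, 0.95 and 0.98 for beta-actin, and 2.48, 2.60 and 3.26 for the transferrin receptor. It was 1.58, 3.14 and 1.79 for the small ribosomal RNA and 4.49, 6.93 and 3.63 for pyruvate carboxylase, with the tamoxifen 24 h array the high one in both. The part of these differences in the results was not tested. On log2 values of kept probe sets the arrays correlated at 0.954 to 0.967.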

How the data were processed

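The authors deposited 1 linear intensity per probe set and array; the sources used here give neither their summary, background correction and scaling nor detection calls. The deposited medians were 13.8 (tamoxifen 48 h), 13.2 (tamoxifen 24 h) and 15.2 (oil). Of 45101 probe sets, 64 were controls and not used; by the platform annotation 34945 name 1 gene, 932 several and 9160 none. Probe sets with a mean percentile rank of 0.5 or more were kept (21804, reading 11092 genes). Arrays were scaled to the same kept median (factors 1.05, 0.944 and 1.01), floored at 4.05, the 25th percentile, and turned to log2; each gene was read on its brightest kept probe set, by mean rank. With 1 array a group there is no test, and precision is limited by the number of arrays. Genes named are the 10 members, pathway genes past 2-fold, 17 pathway genes fixed by name, and the 3 genes most like the widest-ranging member; the other pathway genes given were named after their values were seen. The members and lists were chosen with earlier results of these data known. Alternatives varied the scaling (none, quantile, or cyclic loess with limma 3.58.1), filter, floor, gene reading and size rule. The ratio and call steps were tested on simulated data. The differences planted there were larger than that of any member, in probe sets brighter than that of Bmp2. The simulation therefore does not bear on ratios of the size seen in the members. Python 3.11.15 and pandas 2.3.3 were used.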

Additional observations from a re-analysis of the deposited data

How the results depend on the processing

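Each result was recomputed under up to 10 alternatives. The count of members past 2-fold at 48 h was 1, and 0 with a filter at mean rank 0.75, which leaves out Bmp2 and 2 other members by construction. By the 1.5-fold rule the members past it were 3 at 48 h, 2 at 24 h and 1 for tamoxifen 48 h against 24 h, all lower. With the values as deposited, the member median for 48 h against 24 h was -0.37 instead of -0.21, while the median of all genes was -0.18 instead of -0.02. The pathway count at 24 h was 1 of 52, and 2 with no scaling or with the median of kept probe sets. It was 2 of 63 with a filter at mean rank 0.25 and 2 of 68 with no filter. By the 1.5-fold rule it was 10 of 52, where 18.6% of all genes were past it. The shares of all genes under each filter are given below. At 48 h the pathway count was 4 of 52, and 3 with no scaling, where Myog was at 0.96. It was 9 of 63 with the filter at 0.25 and 9 of 68 with none. By the 1.5-fold rule it was 12 of 52, where 22.4% of all genes were past it. For 48 h against 24 h it was 3 of 52 (Crim1 and Myog higher, Tcf3 lower), where 3.22% of all genes were past 2-fold. It was 1 with no scaling or with the median of kept probe sets. It was 7 of 63 with the filter at 0.25 and 7 of 68 with none. By the 1.5-fold rule it was 9 of 52, where 12.8% of all genes were past it. Tcf3, at -1.08 in that comparison, was at 0.16 with the median of its kept probe sets.

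The log2 ratio of Bmp2 at 48 h ranged from -1.21 to -1.08 over 8 alternatives, that of Id1 from -0.56 to -0.50 and that of Id3 from -0.77 to -0.71 over 9, and that of Id2 from -0.95 to -0.33 over 8, the last with the median of its probe sets. The share of all genes past 2-fold was 11.6% at 24 h, 12.8% at 48 h and 9.64% for 48 h against 24 h with the filter at 0.25, and 2.69%, 4.44% and 1.24% at 0.75; with no filter it was 10.6%, 11.8% and 8.73%. Bmp2 and some kept probe sets of Bmp5, Bmpr1a, Bmpr2 and Id2 are dim, which limits these readings. No paired analysis was possible because each group has 1 array. Where other values moved, the cause was not tested.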
